A study of Mus musculus with 3 samples.

Results

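Clustered strong phospho-STAT3 sites are places where strong phospho-STAT3 peaks stand close together along a chromosome. They were chosen from 1 wild-type library by read counts alone. Windows of 200 bp counted as enriched when they held 10 or more reads, from both strands, and reached a Poisson p below 1e-08, where the expectation was taken from the genome or from the surrounding 10 kb, whichever was higher. Enriched windows that met were merged into 1 site. A site was called strong when its highest window exceeded the local expectation by at least 26 reads, a difference called the excess. Strong sites whose summits lay at most 12.5 kb apart were joined into chains, and the sites of chains with at least 3 members were kept. On chromosomes 1 to 19, leaving out positions below 3100000, this gave 898 clustered sites in 250 chains, out of 6739 strong sites and 26530 sites of any strength. Clustered sites were thus 13.3% of strong sites and 3.38% of all sites there. Counting every chromosome there were 26908 sites.

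The cells were mouse T cells, sorted as naive CD4+ cells and kept for 72 h with 10 ng/ml IL-6 and 2.5 ng/ml TGF-b, plus antibodies that activate the T cell receptor and CD28, and antibodies that block IL-2, IL-4 and IFN-g. They received IL-6 for 1 h more before chromatin was taken. Wild-type cells were Stat3fl/fl FoxP3-GFP without Cre, and STAT3-deficient cells were Stat3fl/fl FoxP3-GFP with CD4-Cre, which acts in developing T cells, before the cells were sorted. Both genotypes carried the conditional allele and FoxP3-GFP. There was 1 library each of wild-type H3K4me3 (12281399 reads), STAT3-deficient H3K4me3 (12075963 reads) and wild-type phospho-STAT3 (10127075 reads). Each group had 1 library, so genotype differences have no replicate check, no test of them was made, and all intervals cover counting error only. Neither input chromatin nor phospho-STAT3 in deficient cells was analysed here, so the sites were not checked against cells that lack the protein.

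STAT3 is a transcription factor that IL-6, IL-21 and IL-23 activate through JAK kinases. Phosphorylated STAT3 enters the nucleus as a dimer and binds palindromes of TTC and GAA separated by a short spacer. The antibody used here recognises STAT3 phosphorylated on a serine, and no library here was made for another phosphorylated residue of STAT3. In T cells STAT3 is needed for the Th17 fate, in which cells secrete IL-17A, IL-17F and IL-21. H3K4me3 is a histone mark found at active promoters. Runs of neighbouring binding sites are often seen at genes that define a cell type.

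Positions are given on mm9. The files give no gene names and the gene tables used here are of GRCm38.p6, so gene names below are placements from general knowledge, made with the GRCm38.p6 gene order in view, and are given as background. No distance to a gene was measured, and the loci named were picked after the positions of the chains were seen. The cell identity was likewise not checked against marker genes.

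The 3 marked regions near clustered sites with the lowest ratio of STAT3-deficient to wild-type H3K4me3 lie at Il17a, near Il17f and at Il21. These genes encode cytokines of Th17 cells. Their promoters are shown because these regions lie at or near the genes. By the spacing of the Il17a and Il17f starts on GRCm38.p6, the lower region near Il17f lies upstream of its start and not at it. Each line is the last 100 bases before the gene's start, 5′ to 3′ on the gene's strand, from RefSeq on GRCm38.p6. Capitals mark TATAAA, searched on both strands.
Il17a, chr1:20730805-20730904, plus strand: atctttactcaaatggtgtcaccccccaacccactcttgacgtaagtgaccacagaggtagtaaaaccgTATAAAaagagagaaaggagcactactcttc
Il17f, chr1:20784271-20784370, minus strand: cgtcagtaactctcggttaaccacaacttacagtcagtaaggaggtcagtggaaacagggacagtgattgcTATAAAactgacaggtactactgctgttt
Il21, chr3:37232637-37232736, minus strand: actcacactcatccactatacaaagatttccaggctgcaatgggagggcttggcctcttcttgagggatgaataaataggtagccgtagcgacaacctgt
TATAAA stood in the Il17a and Il17f stretches and not in that of Il21. It was found in 5.56% of the 32851 RefSeq promoters over the same stretch. The palindrome TTCNNNGAA was searched in the whole 300-base promoter windows, where it was found in 8.30% of promoters. It was in none of these 3 windows, which says only that those letters are not there. Among 7 promoters of genes named here it was in that of Bach2 alone. The clustered sites themselves were not searched, since no mm9 sequence was used here.

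Clustered sites also lay at loci of microRNAs. One chain of 5 sites lies at Vmp1, the gene that overlaps Mir21a, and a chain of 7 lies at Mir142, whose microRNAs are abundant in blood cells. The mature sequences from RefSeq (GRCm38.p6) are shown, 5′ to 3′, with the seed (bases 2 to 8) in capitals, since these are the products of those loci.
mmu-miR-21a-5p: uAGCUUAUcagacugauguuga
mmu-miR-142a-5p: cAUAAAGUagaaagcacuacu
mmu-miR-142a-3p: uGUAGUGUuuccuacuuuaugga
The 3 seeds differ from each other.

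Most chains were short. There were 161 chains of 3 sites, 55 of 4, 17 of 5, 12 of 6, 4 of 7 and 1 of 10, so 195 of the 898 sites were in chains of 5 or more. From first to last summit a chain covered a median of 12.2 kb, from 1.43 to 52.6 kb. Neighbouring summits in a chain were a median of 4425 bp apart, and 26.4% of the 648 distances were at most 2000 bp. The longest distance inside a chain was 12500 bp, and the next distance over the limit was 12525 bp. Of the remaining strong sites, 1434 were in chains of 2 and 4407 stood alone. These counts follow from how the sites were chosen, and no test applies to them.

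**Figure D1:**
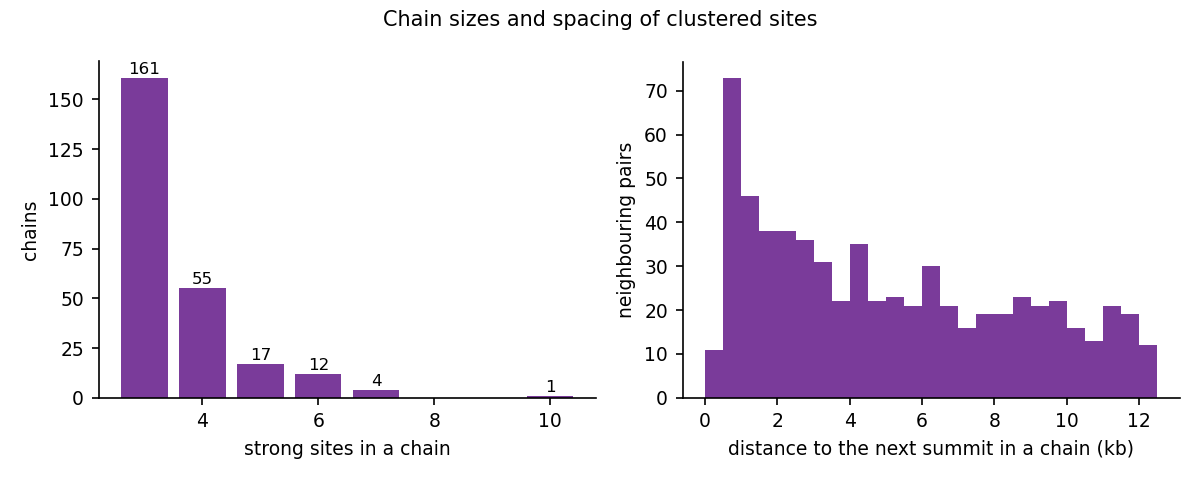
Number of chains by their number of strong sites (left) and distribution of the distance to the next summit within chains in kb, in bins of 0.5 kb (right). Chains of 3 made up 161 of 250, and the distances had a median of 4425 bp.

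Chromosome 11 held the most chains, 27 with 98 sites, which was 19.8% of its strong sites. Chromosome 14 had the lowest share, 7.14%, with 17 sites in 5 chains. The share of strong sites that were clustered thus ranged between these values over the 19 chromosomes.

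A clustered site held a median of 44 reads in its highest window, from 28 to 228. The other strong sites held a median of 37 reads. Over the local expectation the clustered sites stood a median of 8.09-fold and the other strong sites 13.1-fold. The local expectation can include reads of neighbouring sites, and their part in the fold was not tested. The lowest excess among clustered sites and the highest excess below the limit both rounded to 26 reads, and 190 of the 898 had an excess under 30. All clustered sites together held 68006 reads, 0.672% of the phospho-STAT3 library.

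The largest excess of a clustered site was on chromosome 3 at 52685300, with 228 reads against 10.4 expected, in a chain of 3 sites without a marked H3K4me3 region within 10 kb. The next was on chromosome 11 at 76693600 with 209 reads against 10.7, in a chain of 6. The third, with 207 reads against 12.1, was in the chain of 10 on chromosome 1 at Il17a. Of the 10 clustered sites with the largest excess, 9 lay over 2 kb from any H3K4me3 region. All 10 held between 160 and 228 reads. Among all clustered sites, 623 lay over 2 kb from a region and 275 lay in or within 2 kb of one. The median excess was 37.7 reads for the 623 sites and 37.5 for the 275, so excess hardly differed with this distance. A site on chromosome 7 at 132732450 held 196 reads. It is in a chain of 6 at the neighbouring genes Il4ra and Il21r, which encode receptors of IL-4 and IL-21.

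The chain of 10 was the longest by number and by span. It ran from 20704000 to 20757099 on chromosome 1, over 52.6 kb, and its sites held between 31 and 207 reads in their highest windows. A chain of 5 sites followed on chromosome 1 from 20774200 to 20792149, at Il17f. In the first chain, 3 neighbouring sites at 20721050, 20721800 and 20722300 with 77, 69 and 52 phospho-STAT3 reads lay in an H3K4me3 region. The sites with the most reads, 207 at 20730900 and 195 at 20750050, lay 8501 and 22150 bp from the nearest region. Around each of these 2 summits there were 8 wild-type and 13 STAT3-deficient H3K4me3 reads within 1 kb.

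Throughout, H3K4me3 ratios are STAT3-deficient over wild-type on the log2 scale, scaled so that the median of all marked regions is 0. Marked regions are H3K4me3 regions whose reads in both libraries sum to 50 or more. This scaling moved all log2 ratios down by 0.32 compared with scaling by library totals. A region or site was called lower or higher when it differed by at least 2-fold and its exact (Clopper-Pearson) 95% interval excluded 0.

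At Il17a, 98 wild-type against 18 STAT3-deficient H3K4me3 reads were counted on chromosome 1 between 20721000 and 20722399. Its log2 ratio was -2.74 (95% interval -3.55 to -2.0), or 6.67-fold lower. In the chain of 5 sites that follows, the region from 20782800 to 20784399 held 116 and 26 reads. Its log2 ratio was -2.45 (-3.12 to -1.83), 5.47-fold lower. A region between these lower regions, from 20772200 to 20774399, held 82 reads in wild-type and 70 in STAT3-deficient cells. Its log2 ratio was -0.52 (-1.0 to -0.04) and it was not called. Phospho-STAT3 reads lay over and beside this region too, with the summit of a clustered site of 85 reads 101 bp away. Its interval did not overlap those of the lower regions on either side. Carried from the Il17a region by the spacing of the gene starts on GRCm38.p6, the Il17f start falls in or beside this middle region. The lower region from 20782800 would then lie upstream of Il17f. This placement was not checked against an mm9 annotation.

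**Figure D2:**
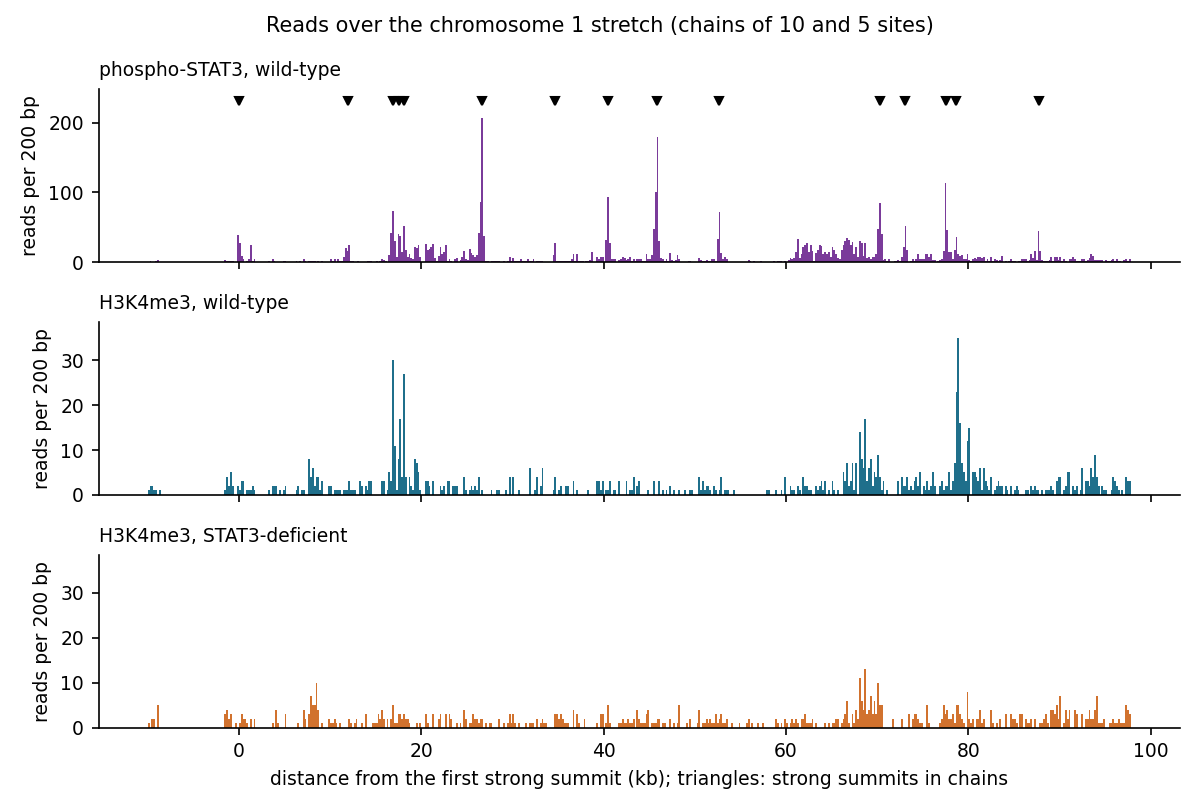
Reads per 200 bp (vertical axes) by distance in kb from the first strong summit of the chromosome 1 stretch, for wild-type phospho-STAT3 and for H3K4me3 of each genotype on 1 scale; triangles are strong summits in chains. Reads are not scaled between libraries, and the 2 tallest wild-type H3K4me3 peaks are low in the STAT3-deficient library while the peak between 65 and 72 kb is in both.

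At Il21, a chain of 6 sites ran from 37104400 to 37132099 on chromosome 3. Its H3K4me3 region between 37130400 and 37133199 had 146 reads in wild-type and 18 in STAT3-deficient cells. Its log2 ratio of -3.31 (-4.11 to -2.60), 9.94-fold lower, was the lowest of all marked regions near clustered sites. The sites beside and in it held 132 and 60 phospho-STAT3 reads, at 37130300 and 37131900. At the other end of the same chain, the region from 37103000 to 37103599 held 30 and 32 reads, with a log2 ratio of -0.20. A further chain of 3 sites began at 37171350, and its site at 37191800 held 131 phospho-STAT3 reads. Within 1 kb of that summit there were 39 wild-type and 13 STAT3-deficient H3K4me3 reads, a log2 ratio of -1.88 (-2.91 to -0.94).

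**Figure D3:**
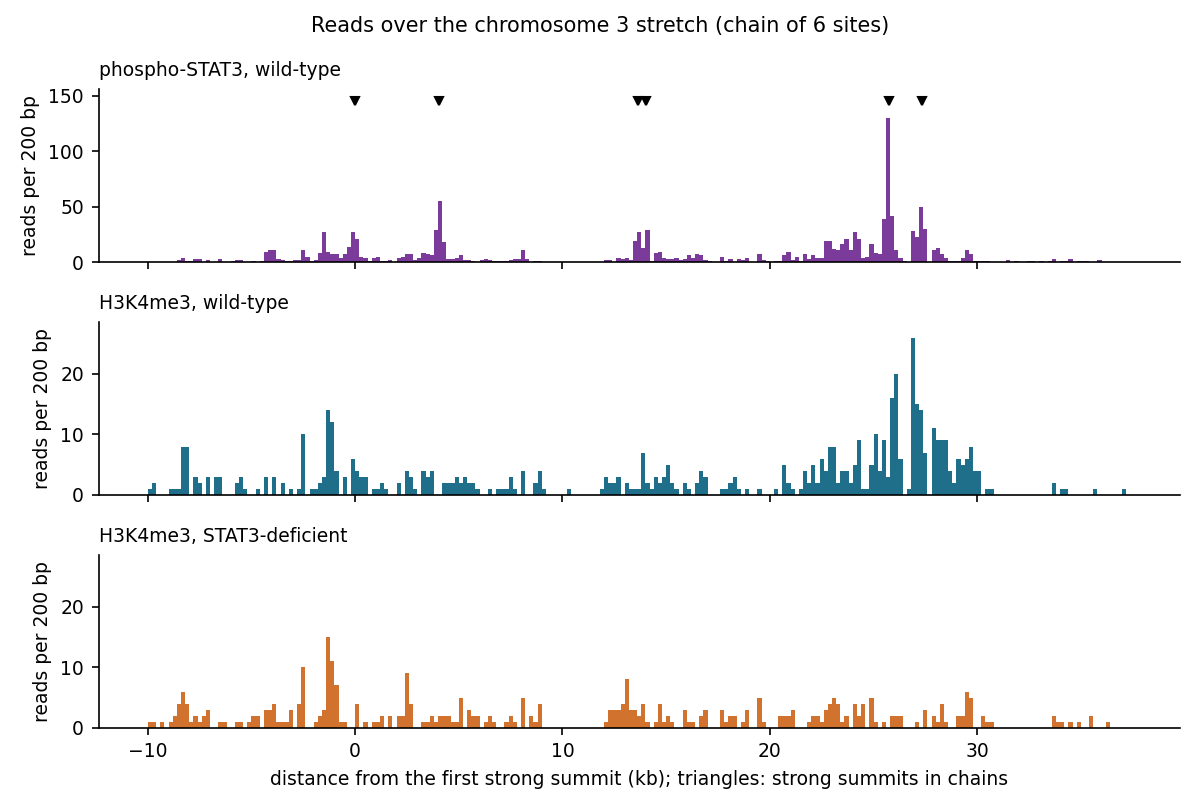
Reads per 200 bp (vertical axes) by distance in kb from the first strong summit of the chromosome 3 stretch, for wild-type phospho-STAT3 and for H3K4me3 of each genotype on 1 scale; triangles are strong summits of the chain of 6. The wild-type H3K4me3 peak between 25 and 30 kb is low in the STAT3-deficient library, while the one just before 0 kb is in both.

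At other chains named here, 1 marked region was called. At Junb, which encodes a subunit of AP-1, a chain of 5 sites on chromosome 8 had 4 marked regions within 10 kb and none was called. The largest of these held 230 and 236 reads, a log2 ratio of -0.26. At Bach2, a repressor of effector T cell genes, a chain of 5 sites on chromosome 4 had no marked region within 10 kb, and its 5 sites held 38 to 86 phospho-STAT3 reads. Chains of 3 sites on either side of it, from 32367500 and from 32511350, each had 1 marked region, with 25 and 27 reads (log2 ratio -0.18) and with 383 and 403 (-0.22). At Mir21a, the chain of 5 had 1 region of 266 and 301 reads, a log2 ratio of -0.12. At Mir142, the chain of 7 was packed into 9.85 kb, and its largest region held 320 and 449 reads, a log2 ratio of 0.19. At Il4ra and Il21r, a region of 37 and 21 reads was called lower (-1.11) and one of 476 and 590 reads was not (0.02). The call of the smaller region was lost when libraries were scaled by their totals (-0.79, -1.64 to 0.02).

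Over all chains, 208 marked regions lay within 10 kb of a clustered site. Of these, 13 were lower in the STAT3-deficient library, 6.25% (Wilson 95% interval 3.69 to 10.4), each beside a different chain. Over all 10971 marked regions the share called lower was 1.13%. It was 2.12% (1.62 to 2.77) among 2453 regions near other strong sites, 0.654% among 5349 near weaker sites and 0.755% among 2650 with no site within 10 kb. Higher regions numbered 4 of 208, 1.92% (0.750 to 4.84), against 1.01% of all marked regions. Scaled by library totals, 9 of the 208 were lower (4.33%) and 6 higher (2.88%), against 54 lower (0.492%) and 319 higher (2.91%) of all marked regions. The interval for lower regions near clustered sites lay above that for other strong sites, and the intervals for higher regions overlapped. The median log2 ratio of the 208 regions was -0.11, against 0.00 over all marked regions, and the middle 50% of them ran from -0.43 to 0.17.

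**Figure D4:**
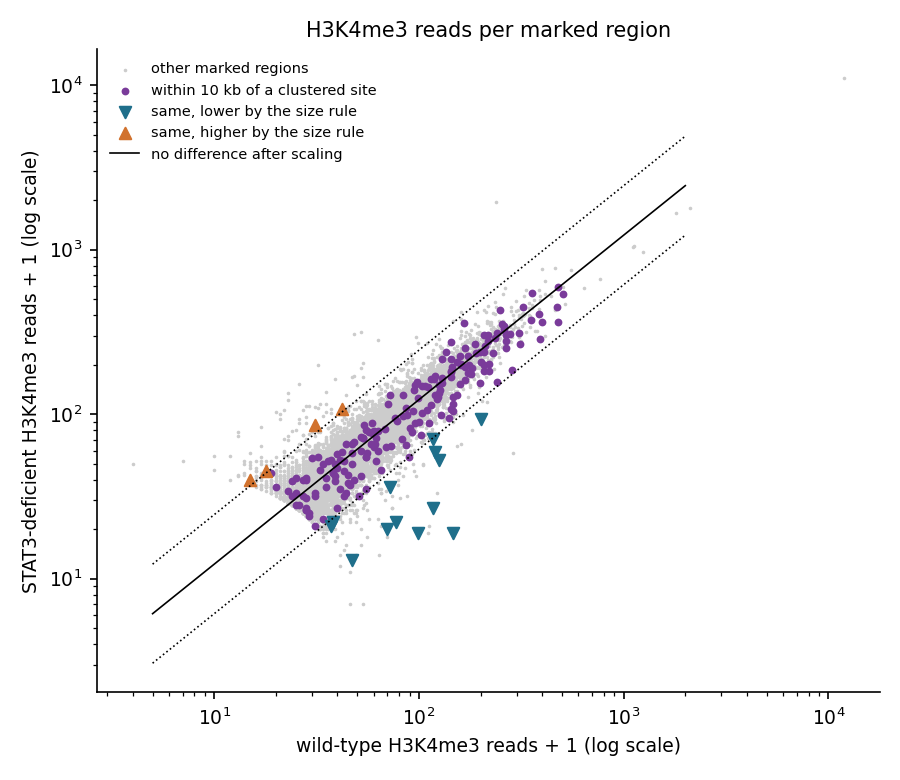
Wild-type against STAT3-deficient H3K4me3 reads, each plus 1 on log axes, for 10971 marked regions, with those within 10 kb of a clustered site in colour. The solid line is no difference after scaling and dotted lines are 2-fold; 13 regions near clustered sites are marked lower and 4 higher.

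The lower regions near clustered sites held few reads. Of the 13, 12 had under 200 reads in both libraries together, as had 115 of the 124 lower regions among all marked regions. Among regions of that size the share lower was 10.4% (6.07 to 17.4) of 115 near clustered sites, 2.67% (2.0 to 3.57) of 1646 near other strong sites and 0.879% of 3984 near weaker sites. Among the 26 regions of 500 reads or more near clustered sites 0 were lower (Wilson interval 0 to 12.9%). Over all 178 marked regions of that size 0 were lower as well, so this count is not particular to clustered sites. Of all 8254 marked regions under 200 reads, 1.39% were lower. Higher regions of that size were 4 of 115 near clustered sites, 3.48% (1.36 to 8.60), 1.15% (0.740 to 1.80) near other strong sites, 0.753% near weaker sites and 1.14% of all. These size classes were chosen after the values were seen.

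The sites were called in wild-type cells only, and the counts changed with the library on which regions were called. When regions came from wild-type reads only, 13 of 139 near clustered sites were lower (9.35%), against 1.19% of all such marked regions. The share was 2.30% near other strong sites, 0.536% near weaker sites and 0.678% with no site near. When they came from STAT3-deficient reads only, 1 of 151 was lower (0.662%), against 0.0977% of all, with 0.156% near other strong sites, 0.0469% near weaker sites and 0.120% with no site near. A region with few reads in a library can fall below the limit for calling it there. The limit of 12 reads per window was the same for 1 library as for both pooled. Whether the choice of sites in wild-type chromatin has a part in the share was not tested.

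Further lower regions had smaller fold differences than those at or near the interleukin genes, though some of their intervals overlapped. On chromosome 16 the region from 58718200 to 58718999 had 76 and 21 reads, or -2.15 in log2 (-2.92 to -1.44). It lies 2800 bp from a chain of 4 sites whose strongest held 175 phospho-STAT3 reads. On chromosome 7 the region from 148246000 to 148247599 held 69 and 19 reads, also -2.15 (-2.97 to -1.40). On chromosome 2 the region from 69934400 to 69935399 held 46 and 12 reads, -2.23 (-3.28 to -1.29). On chromosome 11 the region from 117168600 to 117170799 held 124 and 52 reads, -1.55, and lies 625 bp from a site of a chain of 7. On chromosome 9 the region from 63602200 to 63606399 held 201 and 93 reads, -1.41. Of the 13 lower regions, 4 held a clustered summit and 9 did not, and of the 4 higher regions 2 held one.

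The 4 higher regions were 2.11-fold to 2.31-fold higher, just past the limit of the rule. On chromosome 5 the region from 53810800 to 53812199 had 30 reads in wild-type and 85 in STAT3-deficient cells, which gives 1.21 (0.59 to 1.86) on the log2 scale. On chromosome 7 the region from 82731000 to 82732999 held 41 and 107 reads, 1.09 (0.56 to 1.65). On chromosome 3 the region from 65462800 to 65463399 held 14 and 39 reads, 1.18, and on chromosome 17 that from 28360200 to 28360999 held 17 and 44, 1.08. No chain had both a lower and a higher region.

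H3K4me3 was also counted within 1 kb of each summit, without regard to regions. Of the 898 clustered sites, 342 in 162 chains had at least 50 reads there and 556 had fewer. Of the 342, 26 were lower, 7.60% (5.24 to 10.9), in 22 chains, against 2.19% of the 9543 sites of any kind with enough reads. The share was 3.32% (2.64 to 4.17) for other strong sites and 1.59% for weaker ones. Higher sites numbered 3, 0.877% (0.299 to 2.55), against 0.555% of all. Without the chains of 10 and 5 sites on chromosome 1 and the chain of 6 at Il21, 20 of 334 were lower, 5.99%. Without the chain of 3 that follows on chromosome 3 as well, 19 of 333 were, 5.71%. Neighbouring sites share reads where the windows overlap, as in 168 of the 648 neighbouring pairs, so sites are not independent. Scaled by library totals, 17 clustered sites were lower (4.97%) against 0.838% of all sites with enough reads, and all 17 were among the 26. By that scaling 7 clustered sites were higher (2.05%), against 1.81% of all.

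The lower sites were found in and away from H3K4me3 regions. Of the 26, 16 lay within 2 kb of an H3K4me3 region, 8 of these inside it, and 10 lay farther away. On chromosome 12 the site at 70557800 had 54 wild-type and 12 STAT3-deficient H3K4me3 reads, a log2 ratio of -2.46 (-3.50 to -1.54). On chromosome 8 the site at 122587450, which lies 37150 bp from the nearest region, had 50 and 18 reads, -1.77 (-2.63 to -0.97). On chromosome 11 the site at 76687450, 26651 bp away from one, also had 50 and 18. These sites were singled out after their values were seen.

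**Figure D5:**
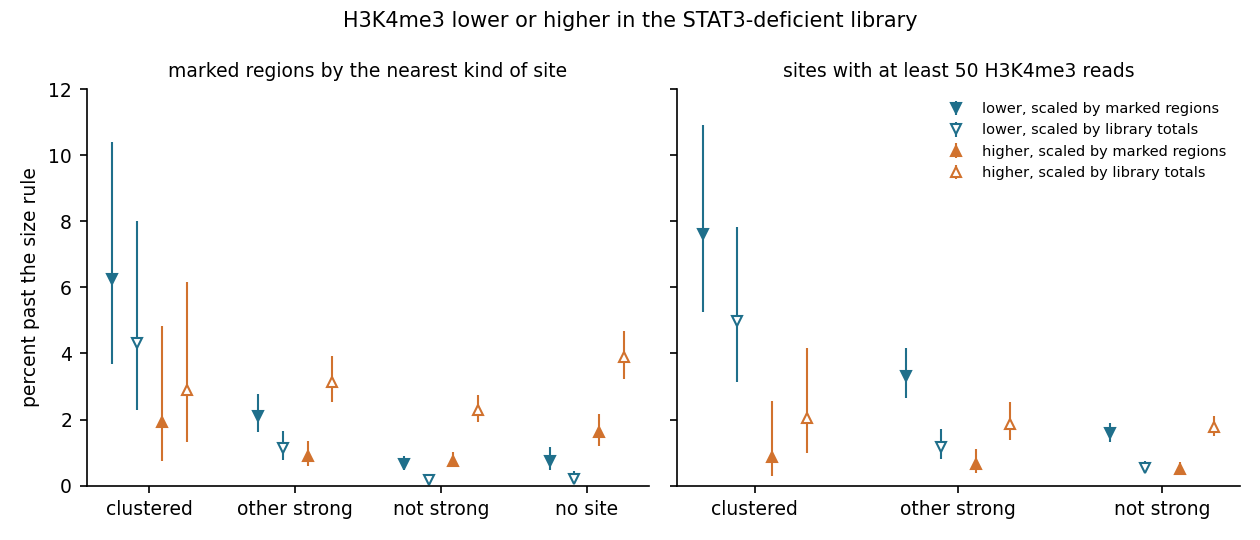
Percent of marked regions within 10 kb of a site, by the kind of site (left), and percent of sites with at least 50 H3K4me3 reads (right), that were lower or higher in the STAT3-deficient library, with Wilson 95% intervals as bars, scaled by marked regions (filled) or library totals (open). The lower share is highest for clustered sites with both scalings, at 6.25% and 4.33% of regions and 7.60% and 4.97% of sites.

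Summed over all 898 sites, H3K4me3 reads within 1 kb numbered 25725 wild-type and 26538 STAT3-deficient. The log2 ratio was -0.25 (-0.27 to -0.22) scaled by marked regions and 0.07 (0.04 to 0.09) scaled by library totals, so its direction depends on the scaling. Over 2 kb from a region and scaled by marked regions, it was -0.34 at clustered, -0.33 at other strong and -0.32 at weaker sites. Scaled by library totals, these were -0.03, -0.01 and -0.01. In or within 2 kb of a region and scaled by marked regions, it was -0.19 at clustered and -0.02 at other strong sites. Scaled by library totals, these were 0.13 and 0.30.

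Most clustered sites lay away from H3K4me3 regions. A region lay within 2 kb of 30.6% (27.7 to 33.7) of clustered sites, and of 32.2% (31.0 to 33.4) of other strong sites, with overlapping intervals. A summit lay inside a region for 17.3% (14.9 to 19.9) of clustered sites, fewer than the 21.5% (20.4 to 22.5) of other strong sites. Over 50 kb from any region lay 12.9% (10.9 to 15.3) of clustered sites and 21.0% (20 to 22.1) of other strong ones. By chain, 121 of 250 had no site within 2 kb of a region, 27 had all their sites there and 102 had both kinds. The 7 sites of the chain on chromosome 9 from 13443950 to 13470399 were all over 2 kb from a region, as were the 6 on chromosome 11 from 76686050 to 76708099, the 6 on chromosome 9 from 123832700 to 123849999 and the 6 on chromosome 17 from 84816650 to 84834849. In the last 2 the strongest sites held 154 and 159 phospho-STAT3 reads. Of the 7 sites on chromosome 9 from 107180950 to 107215649, 5 lay in H3K4me3 regions. That chain had 4 marked regions within 10 kb, with log2 ratios from -0.50 to 0.31, and none was called. The chain of 7 at Mir142 had all its sites within 2 kb of one.

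Windows that also met the site rule in both H3K4me3 libraries were fewer among clustered sites, 3.79% (2.72 to 5.24) against 12.2% (11.4 to 13.1) of other strong sites. One chain of 3 sites, on chromosome 2 from 98502400 to 98507499, was called in both H3K4me3 libraries at all its sites. There 313 of 892 phospho-STAT3 reads, 35.1%, carried a mismatch code, against 4.85% of reads in all clustered sites and 4.58% in the library. No other chain was called in both at all its sites, and mismatch shares of other single chains were not counted. The chain was named after its values were seen.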

How the data were processed

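The deposited files hold 25 bp aligned reads, 1 read per line with a score column that is always 0 and a mismatch code, per the file contents, with no position and strand repeated. The submitters' processing notes name mm9 and SICER, and the aligner is not given in the sources used here. Reads were moved 75 bp. H3K4me3 regions came from both H3K4me3 libraries pooled (200 bp windows of 12 reads or more, joined within 600 bp, at least 2 windows). Adjoining site windows were merged, a choice made after the counts with and without it were seen, because the total then came close to that of an earlier analysis of these data. Sites of X, Y and the first 3100000 positions were left out. The members, lists and classes were chosen with earlier results of these data known. Named items were the 10 longest chains, the 10 largest sites, 8 lower and 5 higher regions (4 existed), described in part by range. Named-gene lists, marker genes and the motif at sites were not run, as no mm9 sequence or annotation was used here. The caller and the size rule were tested on simulated data. Python 3.11.15, numpy 2.4.6, scipy 1.17.1 and pandas 2.3.3 were used. 1 item that the naming rule selects is not reported here.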

Additional observations from a re-analysis of the deposited data

Results flagged for a closer look

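Positions outside the definition also held strong sites in chains of 3 or more. The X chromosome held 3 such sites, in 1 chain, of 31 strong sites there. The first 3100000 positions of the autosomes held 27 such sites in 2 chains, on chromosomes 9 and 11, and 18 of the 27 were also called in both H3K4me3 libraries. These sites are data that no comparison of the report used, and the share called in both H3K4me3 libraries was 3.79% among clustered sites.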

How the results depend on the processing

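The number of clustered sites, and what follows from it, depends on the limits that define them, and each alternative changed 1 choice. An excess of 20 reads gave 2473 sites in 666 chains (20.8% of strong sites), with 34.2% within 2 kb of a region. The summed log2 ratio was then -0.17, with 24 lower (3.78%) and 12 higher regions and 58 lower sites. An excess of 40 gave 122 sites in 38 chains (5.39%), 25.4% within 2 kb, -0.32, 4 lower (12.9%) and 3 higher regions and 6 lower sites. A chain distance of 5 kb gave 303 sites in 95 chains (4.5%), 34.7%, 6 lower (8.57%) and 2 higher regions and 12 lower sites. A distance of 25 kb gave 1647 sites in 420 chains (24.4%), -0.21, 24 lower (5.26%) and 6 higher regions and 36 lower sites. Chains of at least 2 gave 2332 sites in 967 chains (34.6%), -0.20, 24 lower (3.75%) and 10 higher regions and 49 lower sites. Chains of at least 4 gave 415 sites in 89 chains (6.16%), 7 lower (7.78%) and 3 higher regions and 15 lower sites. Requiring 10-fold over the local expectation as well, an alternative chosen after the data were seen, gave 97 sites in 31 chains (2.05%). Of these, 15.5% lay within 2 kb of a region, with 2 lower (12.5%) and 1 higher region and 2 lower sites. Percents of lower regions are shares of the marked regions within 10 kb of a clustered site. Over all marked regions 1.13% were lower and 1.01% higher under each of these settings. No share was given for the lower sites.

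Scaling by library totals turned the summed log2 ratio to 0.07 and left 17 lower sites. The summed ratio was -0.28 at a Poisson threshold of 1e-12, -0.27 in windows of 2 kb and -0.16 with reads at 1 to 2 kb subtracted. Without a read shift 11.7% of strong sites were clustered. Leaving out sites called in both H3K4me3 libraries gave 27.0% within 2 kb of a region. The share was 24.2% within 500 bp, 40.6% within 5 kb, and 16.3% within 2 kb of regions drawn from wild-type reads only. Those regions gave 0 higher near clustered sites, against 0.0736% higher of all 6789 such marked regions. Regions drawn from STAT3-deficient reads only gave 1 lower (0.662%) and 1 higher (0.662%) near clustered sites. Of all 8188 such marked regions, 0.0977% were lower and 1.15% higher. Marked regions from 100 reads gave 2 higher near clustered sites. Under the other settings the percent of regions lower was between 3.75% and 9.35%, inside the interval of the main setting (3.69 to 10.4). The lowest were 3.75% (2.53 to 5.52) for chains of at least 2 and 3.78% (2.55 to 5.56) for an excess of 20. The intervals of these 2 settings lay below 6.25%. Without the chains at Il17a and Il17f it was 5.37%, and with adjoining windows kept apart, giving 915 sites, 6.25%; these were chosen after the data were seen. The alternatives for the STAT palindrome at sites were not run. No paired analysis was possible because each group has 1 library. Depth limits the calls: 556 of 898 clustered sites had too few H3K4me3 reads to be called.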
